A study of Rattus norvegicus with 10 samples.

Results

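The peroxiredoxins are enzymes that reduce hydrogen peroxide with a reactive cysteine, and they are described here in rat pancreatic islets together with the mitochondrial thioredoxin pair and the mitochondrial carrier Ucp2. The genes considered were Prdx1 to Prdx6, Txn2, Txnrd2 and Ucp2, and each probe set that the array annotation assigns to exactly 1 of these symbols was used. This gave 8 of the 9 genes, with 1 probe set each, out of 14217 genes with such a probe set. The only probe set that carries the symbol Prdx1 is also assigned to a second gene, so no value is given for Prdx1. All 8 probe sets averaged a log2 intensity of at least 6 over the arrays, so none of them would be lost to the filter on dim signal that was tried as an alternative.

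Islets were taken from rats aged 40 days and profiled on 10 Affymetrix arrays, 2 per group. BioBreeding (BB) rats develop autoimmune diabetes spontaneously, and lyp is a recessive mutation of Gimap5, a gene that T cells need to survive. DR+/+ animals are diabetes resistant but inducible and lack the mutation, JBlyp/lyp animals are homozygous for it and diabetes prone, and JB animals are inducible and lack it; these 3 groups are called BB-related below. DR+/+ and JBlyp/lyp animals came from DRlyp/+ breeders. F344lyp animals carry lyp on the F344 background, F344 animals do not, and both are labelled as healthy controls. The protocols describe fasted male animals for islet isolation, and collagenase digestion with a density gradient for all groups. The titles call the 2 arrays of a group biological replicates. How JB relates to DR, and whether an array holds the islets of 1 animal or of several, is not stated in the labels. The study asks whether BB islets are less able than islets of other strains to deal with oxidative stress.

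Each value is a log2 intensity, and every difference below is a difference of group means on the log2 scale with its standard error (SE). A gene was called at an adjusted p under 0.05 (limma with Benjamini-Hochberg adjustment over all 31042 probe sets). The islet hormone gene Ins1 had group means of 13.86 to 14.26, and Gcg had 11.23 in DR+/+ islets against 13.04 to 13.55 in the other groups. Gimap5 itself averaged 5.80 in JBlyp/lyp islets and 6.50 in JB islets (adjusted p = 0.785), and 5.99 in F344lyp islets and 6.92 in F344 islets (adjusted p = 0.158). In DR+/+ islets, which like JB lack lyp, Gimap5 averaged 8.32. The T cell gene Cd3d averaged 4.96 in JBlyp/lyp islets and 5.65 in JB islets (adjusted p = 0.224), and 5.34 in F344lyp islets and 6.67 in F344 islets (adjusted p = 0.000937). Of 12 measured T cell markers, 2 were called lower with lyp in F344 and 0 in JB. The DR+/+ arrays stood apart in their cell markers. The summed level of 5 measured markers of the other endocrine cells differed by -1.90 between DR+/+ and JB, and that of 9 beta cell markers by -0.82. The summed levels of 13 stellate and fibroblast and 11 endothelial markers were 1.21 and 1.06 higher in DR+/+ than in JB.

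Peroxiredoxins differ mainly in where they work. Prdx1, Prdx2 and Prdx6 act in the cytosol, Prdx3 in the mitochondrial matrix, Prdx4 in the endoplasmic reticulum, and Prdx5 in mitochondria, peroxisomes and the cytosol. In mitochondria, Txnrd2 uses NADPH to reduce Txn2, which in turn keeps Prdx3 and Prdx5 reduced, while Ucp2 is an inner membrane carrier that is known in mice to lower glucose-stimulated insulin secretion and to limit superoxide production. Rodent beta cells are known for low activities of catalase and glutathione peroxidase, which makes this thioredoxin-dependent route of interest in islets.

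In the BB-related groups, 5 of the 8 genes were called lower than in the F344 groups and none was called higher. Among all genes, 37.9% were called in this comparison and 24.6% were called lower. These shares include dim genes, while all 8 genes here averaged at least 6, and a share among equally bright genes was not taken. The 5 were Prdx4, Ucp2, Prdx5, Txn2 and Prdx2. The median difference of the 8 genes was -0.35, beside -0.04 over all genes. All 6 BB-related arrays lay below all 4 F344 and F344lyp arrays for Prdx4 and Prdx5, that is for 2 of the 8 genes, against 10.6% of all genes. Prdx4 and Prdx5 were also called in each of the separate comparisons of JB with F344 and of JBlyp/lyp with F344lyp. The calls for Prdx2 and Txn2 rested on single arrays, as given with each gene below. This standard error does not include how far groups on the same side lie from each other. With the group as a random block, Prdx5 (adjusted p = 0.0138) and Prdx4 (adjusted p = 0.0348) stayed called and Ucp2 did not (adjusted p = 0.124).

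**Figure D1:**
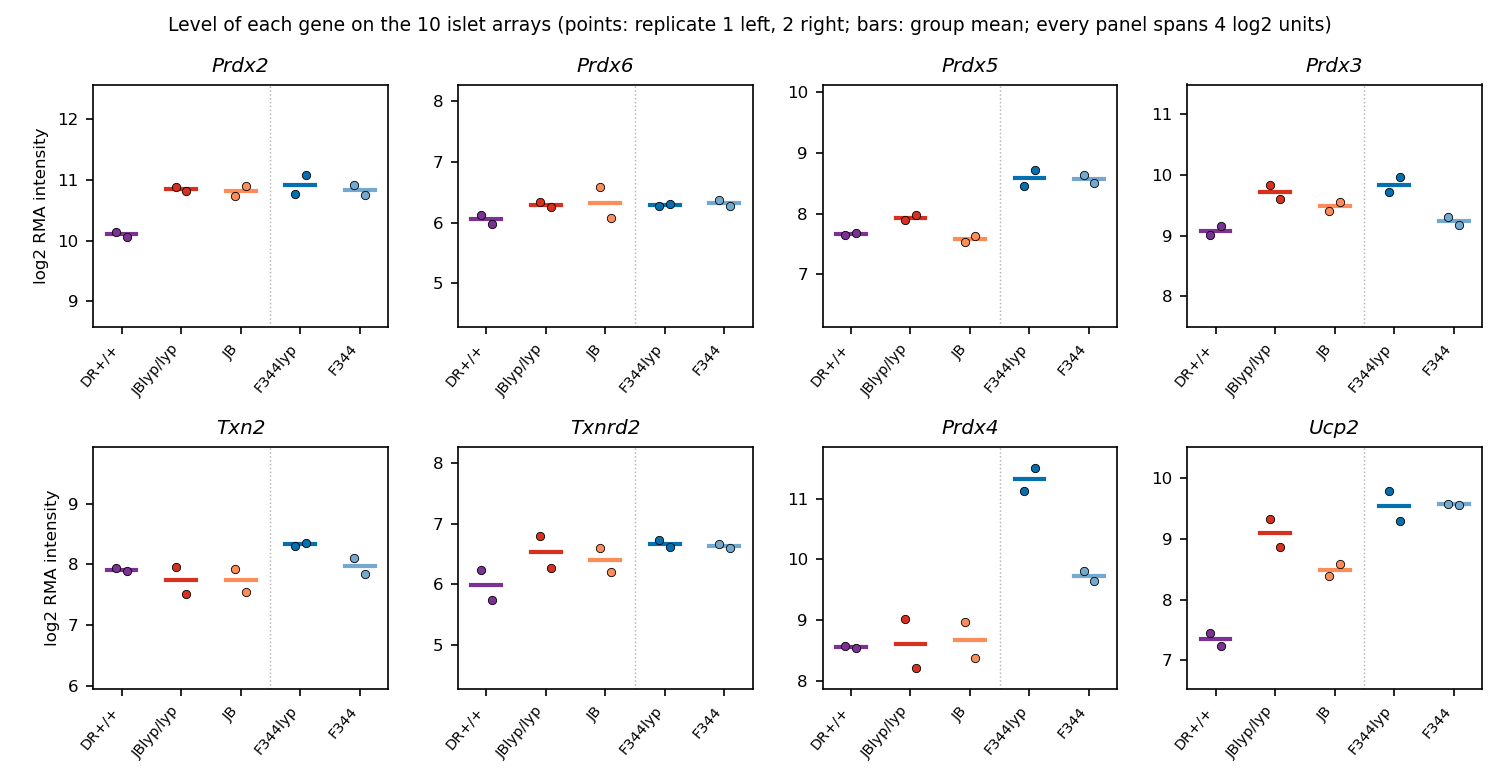
Log2 RMA intensity (vertical axis) of the 8 genes in the 5 groups, with 1 point per array and a bar at the mean of 2 arrays; the dotted line separates the BB-related groups on the left from the F344 groups on the right. Prdx4 spans 2.77 and Ucp2 2.23 log2 units between the highest and the lowest group mean, against 0.27 for Prdx6.

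RNA quality and the cells in the preparations moved with these differences. The difference between the 3′ and 5′ Gapdh control probe sets, which is larger where RNA is shorter, averaged 3.22 on the BB-related arrays and 2.29 on the F344 and F344lyp arrays. It was 2.75 to 3.71 on the former and 2.19 to 2.43 on the latter, so RNA quality and strain cannot be told apart here. With it as a covariate 0 of the 8 genes and 8 of 31042 probe sets were called for BB-related against F344 groups. That fit rests on the small gaps between replicates, so the sizes under it do not separate RNA quality from strain for any gene. The size of the difference under the covariate was -2.08 for Prdx4, -0.84 for Prdx5 and -0.57 for Txn2, against -1.91, -0.85 and -0.35 without it, while Ucp2 had -0.48 against -1.25. Prdx6 had -0.65 against -0.08, Txnrd2 -0.12 against -0.34, Prdx2 0.01 against -0.29 and Prdx3 0.15 against -0.12. In JB against F344, Ucp2 had -0.15 with the covariate and -1.08 without it, and Prdx6 had -0.68 with it and 0.01 without it. The summed level of 20 measured acinar markers, genes of the enzyme-secreting cells around the islets, was 14.84 to 16.26 on the BB-related arrays and 17.15 to 17.82 on the F344 and F344lyp arrays, and all 20 were called lower. The summed level of 17 macrophage and dendritic markers was 11.18 to 12.04 and 12.47 to 12.96 on the same arrays, and 15 of the 17 were called lower. Of 9 beta cell markers 6 were called lower (median -0.79), and of 11 endothelial markers 7 were called higher and 2 lower (median 0.49). The beta cell median was -0.07 in JB against F344, 0.12 in JBlyp/lyp against F344lyp and -1.77 in DR+/+ against JB. The endothelial median was 0.22, 0.09 and 0.82 in the same comparisons, so for both lists DR+/+ stood apart. The part of these cells in the results below was not tested. In such bulk samples, fewer cells of a type and less RNA per cell cannot be told apart.

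Prdx4, the peroxiredoxin of the endoplasmic reticulum, couples peroxide removal to the formation of disulfide bonds in secreted proteins. It stood at 8.57 and 8.54 on the DR+/+ arrays, at 9.02 and 8.20 on the JBlyp/lyp arrays and at 8.96 and 8.38 on the JB arrays, against 11.13 and 11.51 on the F344lyp arrays and 9.80 and 9.64 on the F344 arrays. The 3 BB-related groups overlapped, F344 lay above all of them, and F344lyp lay above F344. Prdx4 was 3.76-fold lower in the BB-related groups than in the F344 groups (difference -1.91, SE 0.18, adjusted p = 5.36e-05, 6 and 4 arrays). It stayed called without any single array (-2.05 to -1.78) and without both DR+/+ arrays (-1.88).

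Prdx4 was lower on the BB background both with and without lyp. The difference was -2.71 (SE 0.27, adjusted p = 0.000269) for JBlyp/lyp against F344lyp and -1.05 (SE 0.27, adjusted p = 0.0356) for JB against F344. The second call ended without JB replicate 2 (-0.76, adjusted p = 0.185), without F344 replicate 1 or 2 (adjusted p = 0.222 and 0.135), without either DR+/+ array (adjusted p = 0.0593) and without either F344lyp array (adjusted p = 0.0559). Prdx4 was 3.03-fold higher in F344lyp than in F344 (1.60, SE 0.27, adjusted p = 0.0225), and it was the 1 of the 8 genes called for lyp in F344, where 1.58% of all genes were called higher. This call ended without each of the 4 arrays it compares, with adjusted p-values of 0.163 and 0.237 without F344 replicate 1 and 2 and of 0.0713 and 0.265 without F344lyp replicate 1 and 2. In JB, the difference with lyp was -0.06 (95% interval -0.67 to 0.55, adjusted p = 0.994). The difference between the 2 lyp effects was -1.66 (SE 0.39, unadjusted p = 0.00165) and was not called (adjusted p = 0.198), except without JBlyp/lyp replicate 1, where it was -2.07 (adjusted p = 0.0255).

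Acinar markers moved with Prdx4 in most but not all pairs of groups. Their summed level was 0.46 higher in F344lyp than in F344, and it differed by -1.19 between JB and F344 and by -1.78 between JBlyp/lyp and F344lyp. Between DR+/+ and JB it differed by -1.21, and Prdx4 differed by -0.12 between these groups (95% interval -0.73 to 0.49, adjusted p = 0.798). The summed macrophage and dendritic level differed by -0.39 between them, with a median of 0.01 over its 17 genes. The part of these cells in Prdx4 was not tested. Within JB and within JBlyp/lyp, replicate 1 had the higher Prdx4 and also the higher acinar level, at 16.23 and 15.89 for JB replicates 1 and 2 and at 16.26 and 15.60 for JBlyp/lyp.

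**Figure D2:**
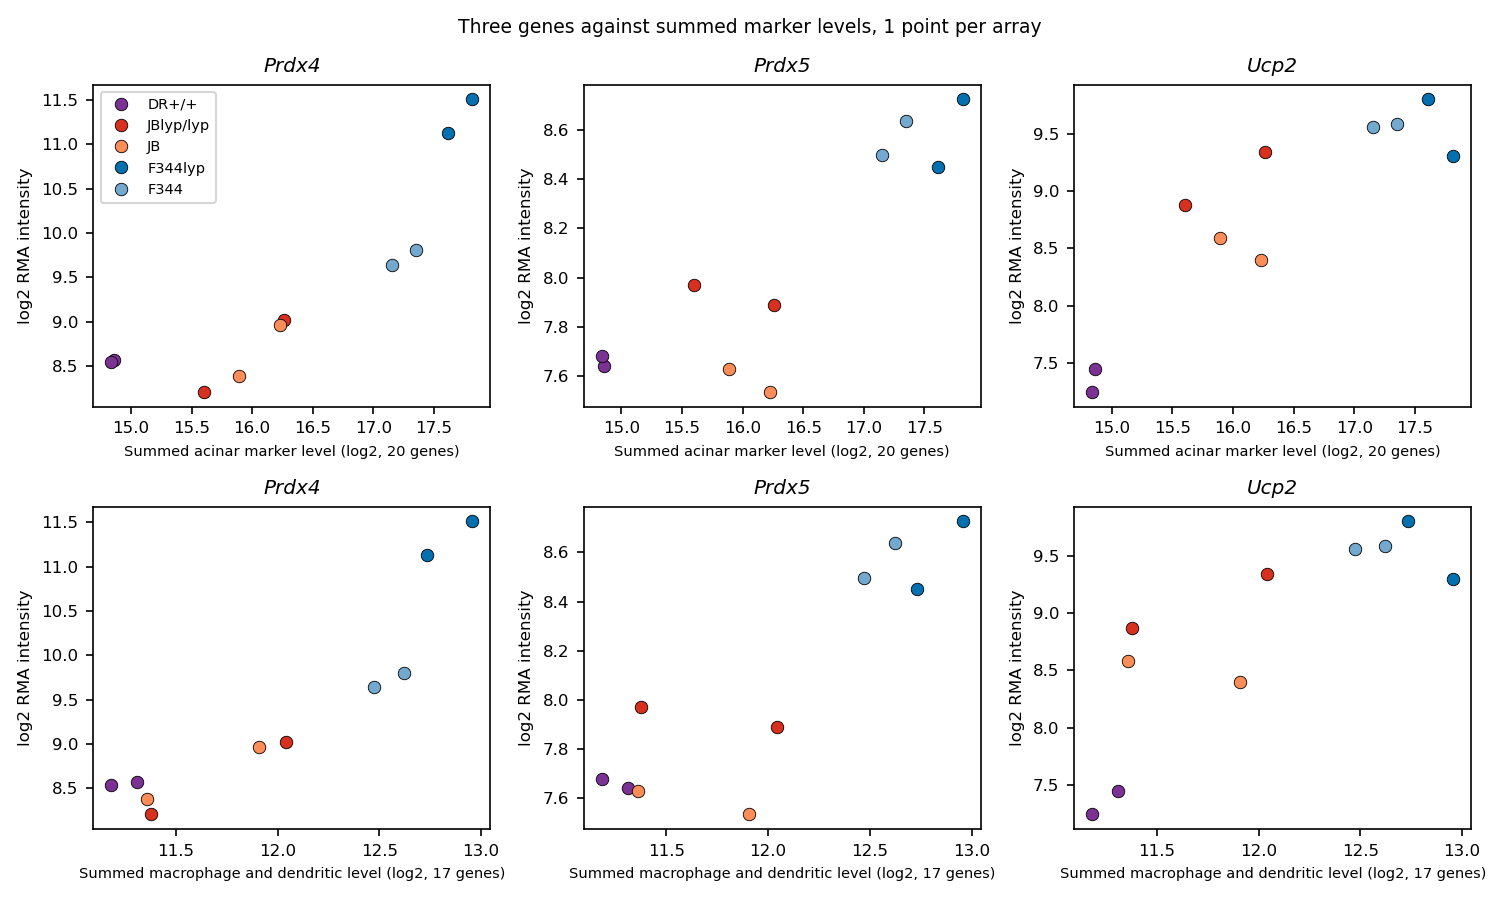
Log2 RMA intensity of Prdx4, Prdx5 and Ucp2 (vertical axes) against the log2 of the summed intensity of acinar markers (upper row) and of macrophage and dendritic markers (lower row), with 1 point per array. The 4 F344 and F344lyp arrays lie to the right in every panel, and the 2 DR+/+ arrays have the lowest acinar levels. For Prdx4 the lowest single arrays are replicate 2 of JBlyp/lyp and of JB. The group mean of Prdx4 is lowest in DR+/+, at 8.55 against 8.61 in JBlyp/lyp and 8.67 in JB.

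Prdx5, which also reduces peroxynitrite and is found in several compartments, was lower in the BB-related groups with little spread within groups. Its values were 7.64 and 7.68 in DR+/+, 7.89 and 7.97 in JBlyp/lyp and 7.53 and 7.63 in JB, against 8.45 and 8.73 in F344lyp and 8.64 and 8.50 in F344. The F344 groups overlapped with each other, and the gap from the lowest of their arrays to the highest BB-related array, at 8.45 and 7.97, was wider than the spread between replicates of any group. The difference was -0.85 (SE 0.09, 1.81-fold lower, adjusted p = 0.000129), and it stayed called without any single array (-0.92 to -0.78). JB fell by 0.99 relative to F344 (SE 0.14, adjusted p = 0.00243), and JBlyp/lyp by 0.66 relative to F344lyp (SE 0.14, adjusted p = 0.0147). The JBlyp/lyp call ended without F344lyp replicate 2 (-0.52, adjusted p = 0.112). The 2 JBlyp/lyp arrays lay above the JB arrays by 0.35 (SE 0.14), which was not called (adjusted p = 0.776). DR+/+ and JB differed by 0.08 in Prdx5 (95% interval -0.24 to 0.40). Between these groups the summed acinar level differed by -1.21 and the summed macrophage and dendritic level by -0.39. The median over the 17 macrophage and dendritic genes was 0.01. The part of these cells in Prdx5 was not tested.

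Ucp2 was the gene of the 8 in which the BB-related groups differed most from each other. It read 7.45 and 7.24 in DR+/+, 9.34 and 8.87 in JBlyp/lyp and 8.40 and 8.59 in JB, against 9.80 and 9.30 in F344lyp and 9.59 and 9.56 in F344. DR+/+ was lowest, JB came next and JBlyp/lyp above it with no overlap among the 3, and only 1 JBlyp/lyp array reached into the range of the F344lyp arrays. For all BB-related against F344 groups the difference was -1.25 (SE 0.13, 2.37-fold lower, adjusted p = 0.000124). It was -0.76 without the DR+/+ arrays (adjusted p = 0.00826), and the call ended with only the 2 sides as group means in the model (adjusted p = 0.0582). Relative to F344, Ucp2 fell by 1.08 in JB (SE 0.21, adjusted p = 0.00959), a call that ended without F344 replicate 1 or 2 (adjusted p = 0.0865 and 0.0689). In JBlyp/lyp against F344lyp the difference was -0.45 (SE 0.21, 95% interval -0.90 to 0.01, adjusted p = 0.189).

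Within the BB-related groups, DR+/+ had 2.21-fold less Ucp2 signal than JB (-1.15, SE 0.21, adjusted p = 0.00232), and this call held without each array. JBlyp/lyp was 0.61 above JB (SE 0.21, unadjusted p = 0.014, adjusted p = 0.651), where 0.00703% of all genes, that is 1 gene, were called. The lyp difference in F344 was -0.02 (SE 0.21), and the difference between the lyp effects, 0.63 (SE 0.29), was not called (adjusted p = 0.665). The endocrine markers that were lower in DR+/+ than in JB moved with Ucp2 in that pair of groups, and the part of this in the result was not tested.

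The promoters of the 3 genes that fell most are shown because these genes moved in the same direction in BB-related islets. They are RefSeq sequences of assembly GRCr8, from 250 bases before to 50 bases after the annotated gene start, 5′ to 3′ on the strand of the gene, and 7 of the 8 genes matched an entry. Capitals mark matches of the antioxidant response element core TGACNNNGC, the letters recognised by the oxidative stress factor Nrf2, on either strand. The windows are chrX:43878483-43878782 (plus strand) for Prdx4, chr1:213531978-213532277 (minus strand) for Prdx5 and chr1:164251123-164251422 (plus strand) for Ucp2.
Prdx4: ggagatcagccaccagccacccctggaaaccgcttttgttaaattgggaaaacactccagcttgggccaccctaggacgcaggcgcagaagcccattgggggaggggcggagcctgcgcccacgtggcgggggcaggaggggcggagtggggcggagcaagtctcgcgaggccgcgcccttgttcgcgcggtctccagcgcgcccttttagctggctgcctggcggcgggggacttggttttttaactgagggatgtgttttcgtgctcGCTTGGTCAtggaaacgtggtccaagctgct
Prdx5: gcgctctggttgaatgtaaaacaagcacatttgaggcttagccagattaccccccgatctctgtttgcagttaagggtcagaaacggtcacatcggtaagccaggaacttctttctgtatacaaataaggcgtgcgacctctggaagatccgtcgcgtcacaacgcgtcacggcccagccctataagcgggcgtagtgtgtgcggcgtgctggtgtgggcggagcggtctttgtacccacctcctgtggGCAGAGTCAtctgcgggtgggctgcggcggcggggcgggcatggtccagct
Ucp2: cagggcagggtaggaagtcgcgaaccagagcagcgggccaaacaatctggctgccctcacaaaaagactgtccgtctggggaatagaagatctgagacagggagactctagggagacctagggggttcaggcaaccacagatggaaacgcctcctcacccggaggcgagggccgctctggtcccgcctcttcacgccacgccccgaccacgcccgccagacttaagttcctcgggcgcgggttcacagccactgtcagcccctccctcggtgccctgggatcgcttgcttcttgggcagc
The element core was found in the windows of Prdx4 and Prdx5 and in none of the other 5, against 12.1% of all 33469 promoter windows. In both genes the match lies on the other strand, as TGACCAAGC in Prdx4 and TGACTCTGC in Prdx5. Neither lies wholly before the annotated gene start. The Prdx4 match begins 19 bases after it, and the Prdx5 match begins 1 base before it and runs across it. The E-box CACGTG was found in Prdx4 alone of the 7 (6.42% of all windows), the GC box GGGCGG in 6 of 7, all but Ucp2 (33.1%), and the CCAAT box in Prdx4 and Txn2 (37.5%). The AP-1 letters TGANTCA, which can overlap the element core, were in none of the 7 (7.33%), nor were the endoplasmic reticulum stress element (0.0657%), the cAMP response element TGACGTCA (1.83%) and the NRF1 element (4.25%). A match of letters is not a bound site, and a missing match says only that the letters are not in this window.

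The cytosolic members changed little outside DR+/+. Prdx2, a peroxiredoxin that is also abundant in red blood cells, had 10.14 and 10.07 in DR+/+, 10.88 and 10.82 in JBlyp/lyp and 10.74 and 10.90 in JB, against 10.76 and 11.08 in F344lyp and 10.92 and 10.75 in F344. The DR+/+ arrays were below all others, and the other 4 groups overlapped. Prdx2 was called in DR+/+ against JB (-0.71, SE 0.15, adjusted p = 0.00598), where 18.4% of all genes were called lower, and this call held without each array. In BB-related against F344 groups the difference was -0.29 (SE 0.10, adjusted p = 0.0455), and without the DR+/+ arrays it was -0.05 (adjusted p = 0.805). That call also ended without any 1 of 8 of the 10 arrays, all but JB replicate 2 and F344lyp replicate 1, at adjusted p-values up to 0.186. The summed level of 6 measured erythroid markers was 9.16 and 9.35 in DR+/+ against 9.91 and 10.46 in JB. Their median difference between these groups was only -0.03, and 1 of the 6 was called lower. On the F344 and F344lyp arrays the summed level was 9.55 to 9.78. The part of red blood cells in the result was not tested. Prdx6, which works with glutathione and also has phospholipase activity, was 5.98 to 6.58 (median 6.20) on the BB-related arrays and 6.27 to 6.37 (median 6.29) on the F344 and F344lyp arrays. Its difference of -0.08 (95% interval -0.33 to 0.17, adjusted p = 0.631) was not called, and neither was any other comparison of Prdx6 with all arrays in the fit; DR+/+ against JB passed without JB replicate 2 (-0.53, adjusted p = 0.0464).

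**Figure D3:**
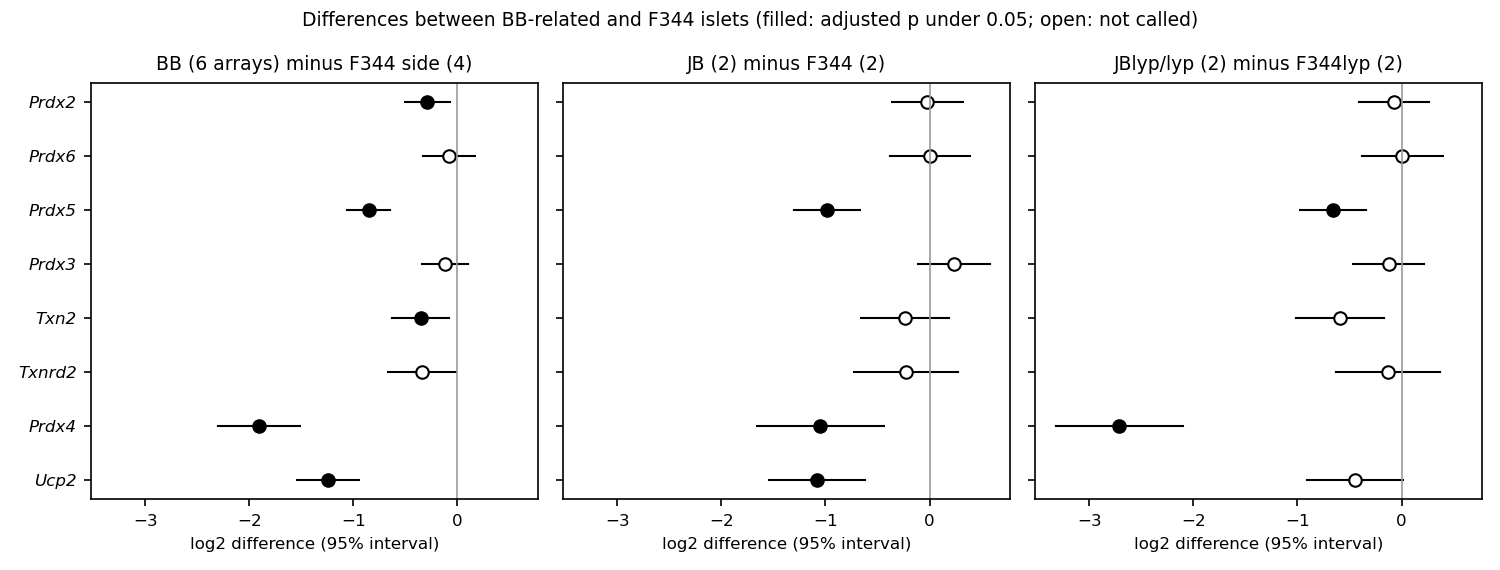
Log2 differences (horizontal axis) of the 8 genes with 95% intervals for the BB-related against the F344 groups, JB against F344 and JBlyp/lyp against F344lyp; filled points passed the adjusted p of 0.05. Prdx4 and Prdx5 are filled in all 3 panels, Ucp2 in 2, and Prdx2 and Txn2 only in the first.

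The mitochondrial thioredoxin branch did not move as 1 unit. Prdx3, the main peroxidase of the mitochondrial matrix, was 9.01 and 9.15 in DR+/+, 9.84 and 9.60 in JBlyp/lyp and 9.41 and 9.55 in JB, against 9.71 and 9.97 in F344lyp and 9.31 and 9.18 in F344. BB-related and F344 arrays overlapped, with a difference of -0.12 (95% interval -0.34 to 0.10, adjusted p = 0.406). The arrays with lyp were above those without it on both backgrounds, by 0.60 in F344 (SE 0.15, unadjusted p = 0.00314, adjusted p = 0.0968) and by 0.24 in JB (SE 0.15, adjusted p = 0.872), and neither was called. DR+/+ was 0.40 below JB (SE 0.15, adjusted p = 0.0823).

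Txn2, which passes electrons to Prdx3, had 7.94 and 7.89 in DR+/+, 7.96 and 7.52 in JBlyp/lyp and 7.92 and 7.55 in JB, against 8.30 and 8.36 in F344lyp and 8.10 and 7.84 in F344. The F344lyp arrays were above all others, and F344 overlapped with every BB-related group. The difference between BB-related and F344 groups was -0.35 (SE 0.12, adjusted p = 0.0476). It was no longer called without DR+/+ replicate 1 or 2, JB replicate 2, JBlyp/lyp replicate 2 or any 1 of the 4 arrays of F344 and F344lyp, at adjusted p-values up to 0.194, nor after quantile normalization (adjusted p = 0.0531). JBlyp/lyp against F344lyp gave -0.59 (SE 0.19, adjusted p = 0.0662), and without JBlyp/lyp replicate 1 it was called (-0.81, adjusted p = 0.0218). Txnrd2, the reductase of Txn2, ranged from 5.73 to 6.80 (median 6.25) on the BB-related arrays and from 6.59 to 6.73 (median 6.63) on the F344 and F344lyp arrays. Its lowest group was DR+/+, with 6.23 and 5.73. The difference of -0.34 (SE 0.14, adjusted p = 0.0993) was not called with all arrays, and it was called without JBlyp/lyp replicate 1 (-0.43, adjusted p = 0.028).

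For single comparisons the counts over the 8 genes were small. JB against F344 had 3 genes called lower (8.22% of all genes were called lower), and the 5 not called had adjusted p-values of 0.393 to 0.99. JBlyp/lyp against F344lyp had 2 called lower (11.3% of all genes), and DR+/+ against JB had 2 called lower, Ucp2 and Prdx2 (18.4% of all genes). For lyp in JB and for the difference between the lyp effects 0 of the 8 were called by limma, with 2 and 1 at an unadjusted p under 0.05, where 0.00703% and 0.478% of all genes were called.

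Related lists were counted in BB-related against F344 islets. Of 22 other thioredoxin, glutaredoxin and repair genes, 10 were called lower and 0 called higher. The median difference was -0.22, and 24.6% of all genes were called lower. With the group as a random block 2 of the 22 were called lower, and in the disulfide, mitochondrial and other enzyme lists below 1, 1 and 0 genes were. The list's named falls were Msrb2, a mitochondrial methionine sulfoxide reductase, at -1.08 (SE 0.19, adjusted p = 0.00194), the thioredoxin-related Txndc17 at -1.07 (SE 0.12), the selenoprotein Msrb1 at -1.02 (SE 0.09) and nucleoredoxin, Nxn, at -0.85 (SE 0.14). Msrb2 averaged 5.64 in DR+/+, 6.97 in JBlyp/lyp and 6.82 in JB, against 7.68 in F344lyp and 7.44 in F344. It was not called in JB against F344 (adjusted p = 0.226) or in JBlyp/lyp against F344lyp (adjusted p = 0.146). Txndc17, Msrb1 and Nxn were called in both. Srxn1, the sulfiredoxin that restores overoxidised peroxiredoxins, fell by 0.64 (SE 0.13, adjusted p = 0.00429). It was called in neither of these separate comparisons (adjusted p = 0.128 and 0.139). The cytosolic pair was not called, with Txn1, the cytosolic thioredoxin, at -0.18 (SE 0.10, adjusted p = 0.207) and its reductase Txnrd1 at 0.30 (SE 0.31, adjusted p = 0.503). The thioredoxin inhibitor Txnip stood at 0.13 (SE 0.13, adjusted p = 0.47), but the BB-related groups did not move together. Txnip averaged 11.96 in DR+/+, 10.71 in JBlyp/lyp and 10.76 in JB, against 10.79 in F344lyp and 11.23 in F344. It was called higher in DR+/+ than in JB (1.20, SE 0.20, adjusted p = 0.00149). Between JB and F344 it differed by -0.47 (adjusted p = 0.171). Without the DR+/+ arrays 8 of the 22 were called lower and 1 called higher.

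Genes of disulfide formation in the endoplasmic reticulum, where Prdx4 works, were called lower in 8 of 17 cases and called higher in 1, with a median of -0.32. The pancreatic disulfide isomerase Pdia2 differed by -4.11 (SE 0.17), with group means of 4.62 in DR+/+, 5.93 in JBlyp/lyp and 6.11 in JB, against 10.56 in F344lyp and 8.77 in F344. Like Prdx4, Pdia2 was higher in F344lyp than in F344, by 1.79 (adjusted p = 0.0131). Vkorc1, which recycles vitamin K, fell by 0.84 (SE 0.11), the disulfide isomerase P4hb by 0.73 (SE 0.13) and Txndc11 by 0.69 (SE 0.18). These 3 had their lowest values in DR+/+, and none was called in JB against F344 or in JBlyp/lyp against F344lyp. Txndc11 averaged 5.79 in DR+/+, 7.45 in JBlyp/lyp and 7.35 in JB, against 7.84 in F344lyp and 7.26 in F344. The falls in this list were 3 without F344 replicate 1, 4 without F344lyp replicate 2 and 5 without the DR+/+ arrays, where the median was -0.02. In JB against F344 and in JBlyp/lyp against F344lyp 1 of the 17 was called lower, and in DR+/+ against JB 11 were.

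Mitochondrial genes of peroxide handling and carriers were called lower in 7 of 19 cases and called higher in 1 (median -0.18). They included the lipid peroxidase Gpx4 at -1.10 (SE 0.22), the ADP/ATP carriers Slc25a4 at -0.99 (SE 0.12) and Slc25a5 at -0.57 (SE 0.10), and manganese superoxide dismutase, Sod2, at -0.61 (SE 0.10). Slc25a5 was lowest in DR+/+, at 10.71 and 10.67, with 11.75 and 11.61 in JBlyp/lyp and 11.48 and 11.56 in JB. It had 11.96 and 12.33 in F344lyp and 11.63 and 11.57 in F344, so JB lay close to F344. Without the DR+/+ arrays 2 of the 19 were called lower, and the median was 0.03. Other relatives of Ucp2 were not called: Ucp1 differed by 0.08 (adjusted p = 0.67), Ucp3 by -0.02 (adjusted p = 0.912), Slc25a14 by -0.55 (adjusted p = 0.0548), Slc25a27 by 0.01 (adjusted p = 0.975) and Slc25a30 by 0.38 (adjusted p = 0.0846). These relatives fell outside the rule for naming genes and were picked after their values were seen. Of 9 other peroxide and superoxide enzymes 6 were called lower and 1 called higher (median -0.59), and without DR+/+ 4 were called lower and 0 higher. The named ones were the glutathione peroxidases Gpx2 at -1.09 (SE 0.23) and Gpx3 at -0.90 (SE 0.13), the haem oxygenase Hmox1 at -0.90 (SE 0.10) and the extracellular superoxide dismutase Sod3 at -0.83 (SE 0.13). The BB-related groups did not move together for the glutathione peroxidases. Gpx2 averaged 8.46 in DR+/+, above every F344 and F344lyp array, 5.80 in JBlyp/lyp and 6.96 in JB, against 8.26 in F344lyp and 8.06 in F344. Gpx3 averaged 7.79 in DR+/+, 10.00 in JBlyp/lyp and 9.81 in JB, against 10.41 in F344lyp and 9.78 in F344. In JB against F344 the median difference of the acinar markers was -1.30 and that of the macrophage markers -0.64, beside -0.34 for the thioredoxin, 0.01 for the disulfide, 0.06 for the mitochondrial and -0.26 for the other enzyme list. The part of these cells in the lists was not tested.

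**Figure D4:**
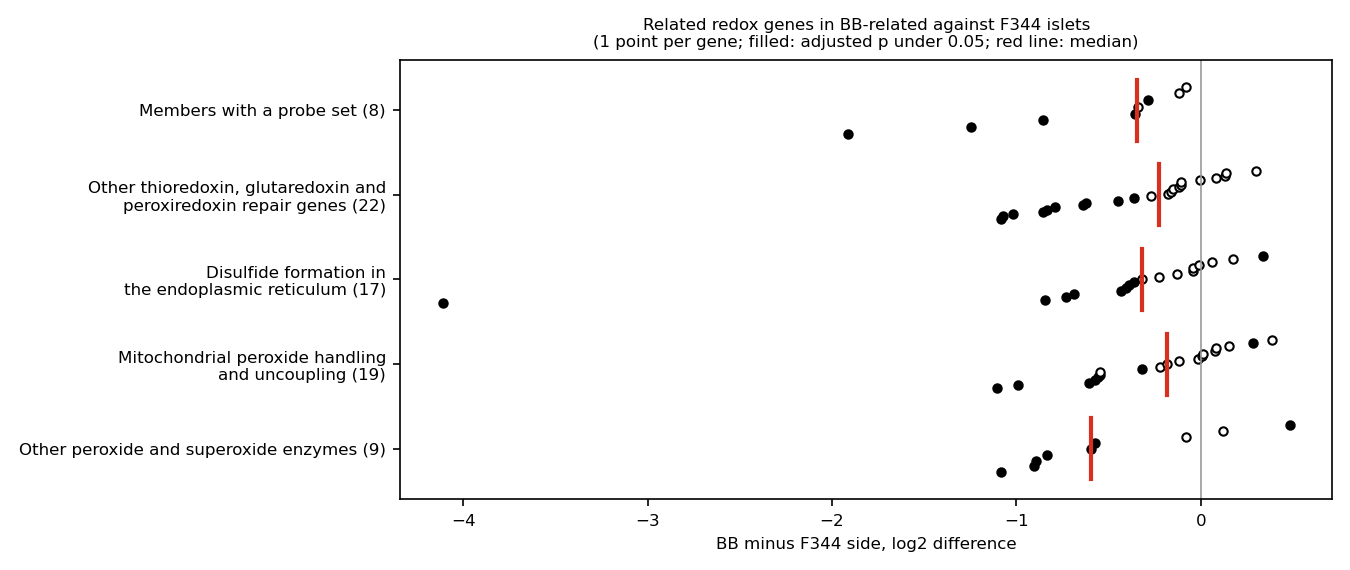
Log2 differences between BB-related and F344 groups (horizontal axis) for the 8 genes and for 4 lists of related genes, with 1 point per gene, filled where the adjusted p was under 0.05 and a red line at the median. The medians lie between -0.59 and -0.18, and Pdia2 at -4.11 is the point farthest to the left.

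The genes most like Prdx4, Ucp2 and Prdx5 across the 10 arrays were found by the root mean square difference of the log2 values after each gene was centred on its own mean. The genes closest to Prdx4 were the serine protease gene Hpn (0.145), Tmem97 (0.166) and the glutaminase gene Gls2 (0.215). The median over the other genes, without uncharacterised loci, was 1.11. Hpn had group means of 4.36 in DR+/+, 4.43 in JBlyp/lyp and 4.42 in JB, against 7.05 in F344lyp and 5.65 in F344, so its order of groups among the F344 pair and the gap to the BB-related groups were those of Prdx4. The genes closest to Ucp2 were Ube2s (0.182), Rabac1 (0.19) and Nucb1 (0.194), with a median of 0.859 taken in the same way. Rabac1 averaged 7.34 in DR+/+, 9.36 in JBlyp/lyp and 8.76 in JB, against 9.88 in F344lyp and 9.61 in F344. The genes closest to Prdx5 were Psmc1 (0.0704), a subunit of the proteasome, Pdap1 (0.0892) and Mta2 (0.118), with a median of 0.505 taken in the same way. Psmc1 averaged 7.85 in DR+/+, 8.21 in JBlyp/lyp and 7.80 in JB, against 8.91 in F344lyp and 8.76 in F344.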

How the data were processed

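Per the submitters' processing notes, GCOS and RMA were used (versions not given in the sources used here), and the deposited table holds a log2 intensity for every probe set on every array. RMA scales arrays to a common distribution, so each difference is relative to the other probe sets. Of 31099 probe sets, 57 controls were set aside. A mean per group was fitted with limma 3.58.1 in R 4.3.3 (lmFit, eBayes; residual degrees of freedom 5, prior 4.72), with no filter, and comparisons were taken as contrasts. "BB-related against F344" sets the mean of 3 group means against the mean of the other 2. Where a gene had several probe sets, the brightest on average stood for it. The number of arrays, 2 per group, limits the precision. The members and lists were chosen with earlier results of these data known. Named were all members, the 4 called genes of each related list with the largest difference, and Txn1, Txnrd1, Txnip and Srxn1. The 3 nearest genes were named for the 3 members with the widest group means, without uncharacterised loci. The plan was to name the 2 brightest of each marker list, but only Ins1, Gcg and Cd3d were named, with Gimap5 as the gene of the lyp mutation. Alternatives were a quantile normalization, a filter, a replicate block, a Gapdh covariate, another probe set choice, other group models and leaving out arrays; counts over lists under these were added after seeing the data. Figures were drawn with matplotlib 3.10.9.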

Additional observations from a re-analysis of the deposited data

How the results depend on the processing

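With the Gapdh 3′ to 5′ difference as a covariate, 0 of the 8 genes were called for BB-related against F344 groups (5 without it), for JB against F344 (3), for JBlyp/lyp against F344lyp (2) and for lyp in F344 (1); the cause was not tested. Under it the differences stayed near their size for Prdx4 (-2.08, and 1.64 for lyp in F344) and Prdx5 (-0.84). For Ucp2 they were -0.48 for BB-related against F344, -0.15 for JB against F344 and 0.11, with the sign turned, for JBlyp/lyp against F344lyp. For Prdx6 they were -0.65 for BB-related against F344 (-0.08 without it) and -0.68 for JB against F344 (0.01 without it). The covariate did not overlap between BB-related and F344 arrays, so neither the lost calls nor these sizes separate RNA quality from strain. For BB-related against F344, 2 genes were called with 2 group means, 2 with the group as a random block and 3 without the DR+/+ arrays. Leaving out 1 array at a time gave 3 to 5 called genes for BB-related against F344, 1 to 3 for JB against F344, 1 to 3 for JBlyp/lyp against F344lyp, 0 to 1 for lyp in F344, 0 to 1 for the difference between the lyp effects, 0 for lyp in JB and 2 to 3 for DR+/+ against JB; a group left with 1 array was assumed to vary like the others. Over the 8 genes and all comparisons, the direction turned under at least 1 alternative in 26 of 56 cases, 1 of them a called difference, that of Prdx2 for BB-related against F344. In that comparison the turned values were Prdx2 (0.0093) and Prdx3 (0.15) with the Gapdh covariate, Prdx3 (0.055) and Prdx6 (0.0064) without the DR+/+ arrays, and Prdx6 among single arrays left out (-0.16 to 0.0060, the positive value without JB replicate 2). Over all probe sets, 10300 were called for BB-related against F344, 6350 with dim probe sets left out (fewer tested), 6742 without F344 replicate 1, 3518 with 2 group means, 959 with the random block and 8 with the covariate. The labels share replicate numbers between groups, but same-numbered arrays deviated together in some pairs of groups only (correlations of -0.10 to 0.65), so the numbers were not taken as pairs. With a replicate block 6 of the 8 genes were called for BB-related against F344, Txnrd2 among them (adjusted p = 0.0268), and 3 for JBlyp/lyp against F344lyp, Txn2 among them (adjusted p = 0.0315); it changed no other call of the 8 genes. Quantile normalization ended only the call of Txn2 for BB-related against F344, and the probe set choice changed nothing, since each gene has 1 probe set.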
